A study of Mus musculus with 12 samples.

Results

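NRF2, encoded by Nfe2l2, is the transcription factor that switches on many antioxidant and detoxifying enzymes, and the 10 genes described here are Nfe2l2, its inhibitor Keap1 and 8 enzymes known as its targets. They were taken from the arrays by gene name, as non-control probes annotated Nfe2l2, Keap1, Nqo1, Gclc, Gclm, Txnrd1, Srxn1, Gsr, Prdx1 or G6pdx. All 10 genes were found, on 12 of the 55681 non-control probes, which carry 24185 gene names in all. The RNA came from RAW264.7 cells, a mouse macrophage line, on 12 arrays of 1 colour. The groups were NS (cells without added NaCl and without LPS), HS (40 mM NaCl added), NS + LPS (10 ng/ml LPS, no added NaCl) and HS + LPS (both), all at 24 h and with 3 arrays each. LPS is lipopolysaccharide, a bacterial cell wall component that activates macrophages. The labels leave NS and HS unexplained. High salt was taken for HS because the title of the series names it, and NS was taken for the matching medium. Nothing in the labels says that the 3 replicates of a group were grown separately, so p-values reflect the spread among these arrays, and that spread may be technical. All groups are 1 cell line, so they describe RAW264.7 cells and not primary macrophages.

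In resting cells the KEAP1 protein holds NRF2 and directs it to degradation. Oxidants and electrophiles modify KEAP1, NRF2 then accumulates in the nucleus, pairs with a small MAF protein and binds the antioxidant response element of its target genes. NRF2 is thus controlled largely at the protein level, and the arrays measured RNA only. In macrophages NRF2 is known for sustaining glutathione and for restraining inflammatory gene expression.

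The core of the antioxidant response element is usually written TGACNNNGC, and the promoter windows of the members are shown because this is the element through which NRF2 reaches its targets. RefSeq promoter windows (GRCm38.p6, 250 bases before to 50 after the start) were matched by symbol for 8 of the 10 genes, as 10 windows, Txnrd1 having 3. Gclc and Gsr are named only. The core was searched on both strands, and 6 of these 8 genes held it. These were Nfe2l2, Gclm, Srxn1, Prdx1, G6pdx and, in 1 of its 3 windows, Txnrd1, whereas the windows of Keap1 and Nqo1 did not contain these letters. Over all RefSeq windows of this length, 12.4% of 32851 windows and 14.0% of 27025 genes held a match. Each match is printed below within 30 bases of its gene's strand, 5′ to 3′, with the core in capitals (as GCNNNGTCA where the core is on the opposite strand).
Nfe2l2: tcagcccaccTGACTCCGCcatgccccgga
Gclm: gctcccgggcGCACCGTCAactctcacgag
Srxn1: gcagtgggcaGCTAGGTCAgagtgagacac
Prdx1: cagggaaagcGCTGAGTCAtcccccgtagg
Txnrd1: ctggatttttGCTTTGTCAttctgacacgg
G6pdx: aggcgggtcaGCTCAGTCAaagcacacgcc

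The bases printed for Nfe2l2 lie at chr2:75704884-75704913, and the first core base is 240 bases before the start. In the printed stretches of Gclm (chr3:122245413-122245442), Prdx1 (chr4:116685456-116685485), Txnrd1 (chr10:82859104-82859133) and G6pdx (chrX:74428918-74428947) the core begins 134, 133, 92 and 57 bases before it. In the printed stretch of Srxn1 (chr2:152105542-152105571) the core begins 29 bases after the start. Nfe2l2 and G6pdx lie on the minus strand, and the other 4 on the plus strand. A match is a description of these letters, and no binding was measured here.

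Levels are given as scaled signal, the background-subtracted fluorescence of a probe divided by the 75th percentile of its array, so that 1 is that percentile. They compare arrays for 1 probe and are not set against each other between probes. Array brightness before scaling (the 75th percentile) lay between 641 and 783 in NS, 613 and 656 in HS, 621 and 635 in NS + LPS and 411 and 438 in HS + LPS, with 44.6 to 53.3% of probes well above background over all arrays. Replicates of a group correlated at 0.9958 or more across probes. A single slide carried 8 arrays, namely all of NS, all of HS and the NS + LPS arrays 1 and 2. The NS + LPS array 3 was on another slide of the same scan day, and the HS + LPS arrays had a separate slide and scan day. Therefore in every comparison with HS + LPS the treatment and the slide cannot be told apart. All 9 macrophage markers on the array were well above background on all 12 arrays, with summed scaled levels of 1270 to 1370 in NS, 1270 to 1380 in HS, 1320 to 1370 in NS + LPS and 1470 to 1560 in HS + LPS. Of the markers of other cell types, none of the 4 epithelial genes rose above background on any array. B cell and fibroblast lists had 0 of 3 and 0 of 4 genes above it on all arrays, and neutrophil, endothelial and erythroid lists 1 of 3 each. The summed T cell markers (2 of 4 above background on all arrays) ranged from 2.30 to 2.53 in NS, 2.74 to 3.01 in HS, 2.36 to 2.86 in NS + LPS and 2.40 to 2.56 in HS + LPS. The part of these levels in the results below was not tested. In bulk RNA, fewer cells that express a gene and less RNA per cell cannot be told apart. The salt-induced osmolyte transporters Slc6a12 and Slc5a3 were 2.74 and 2.56 higher in HS than in NS (log2 differences), and the LPS-induced genes Il6 and Nos2 were 9.24 and 5.48 higher in NS + LPS than in NS.

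The 10 genes did not move as a block. LPS without added NaCl raised Srxn1, Prdx1, Gclm, G6pdx, Keap1 and Nqo1 and lowered Gclc, Nfe2l2 and Gsr (9 of 10 called, adjusted p under 0.05 from limma over all 13856 genes tested, against 63.8% of all genes). Added NaCl without LPS lowered Gclm and Srxn1 and raised Prdx1 and G6pdx (4 of 10 called, against 37.0% of all genes), by at most 1.22-fold (Gclm). Added NaCl in LPS-treated cells raised Nqo1, Gclc and G6pdx and lowered Keap1, Prdx1, Gclm, Nfe2l2 and Srxn1 (8 of 10, against 57.5%). LPS in cells with added NaCl raised Nqo1, Srxn1, Gclm, G6pdx and Prdx1 and lowered Nfe2l2, Gclc, Keap1 and Gsr (9 of 10, against 72.3%). The effect of NaCl differed with and without LPS, by the interaction term, for Nqo1, Keap1, Prdx1 and Nfe2l2 (4 of 10, against 36.2%; 1 higher and 3 lower, against 17.4% and 18.8%). Nqo1 was kept for testing only because it was above background throughout HS + LPS, the group where it is high. Its comparisons with that group are conditioned on that level, so it gives no support to these counts or to the medians below. The members' called shares were near or above these backgrounds and are given as a description.

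The median log2 difference of the 10 genes was 0.07 for NaCl without LPS, where that of all genes was 0.02. It was -0.17 against -0.04 for NaCl with LPS and 0.52 against -0.03 for LPS without NaCl. For LPS with added NaCl it was 0.11 against -0.11, and for the interaction -0.09 against -0.03. The groups did not overlap for 6, 8, 8 and 9 of the 10 genes for these comparisons in the same order, the interaction left out, where 50.5%, 64.2%, 69.6% and 74.9% of all genes did not overlap. The median of all genes in HS + LPS against HS moved to 0.03 under cyclic loess normalization, so members' differences in that comparison are also given relative to the median below. Within the slide that holds NS and HS, with 2 arrays of NS + LPS, 8 of 10 genes were called for LPS without NaCl, and Nqo1 was not.

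**Figure D1:**
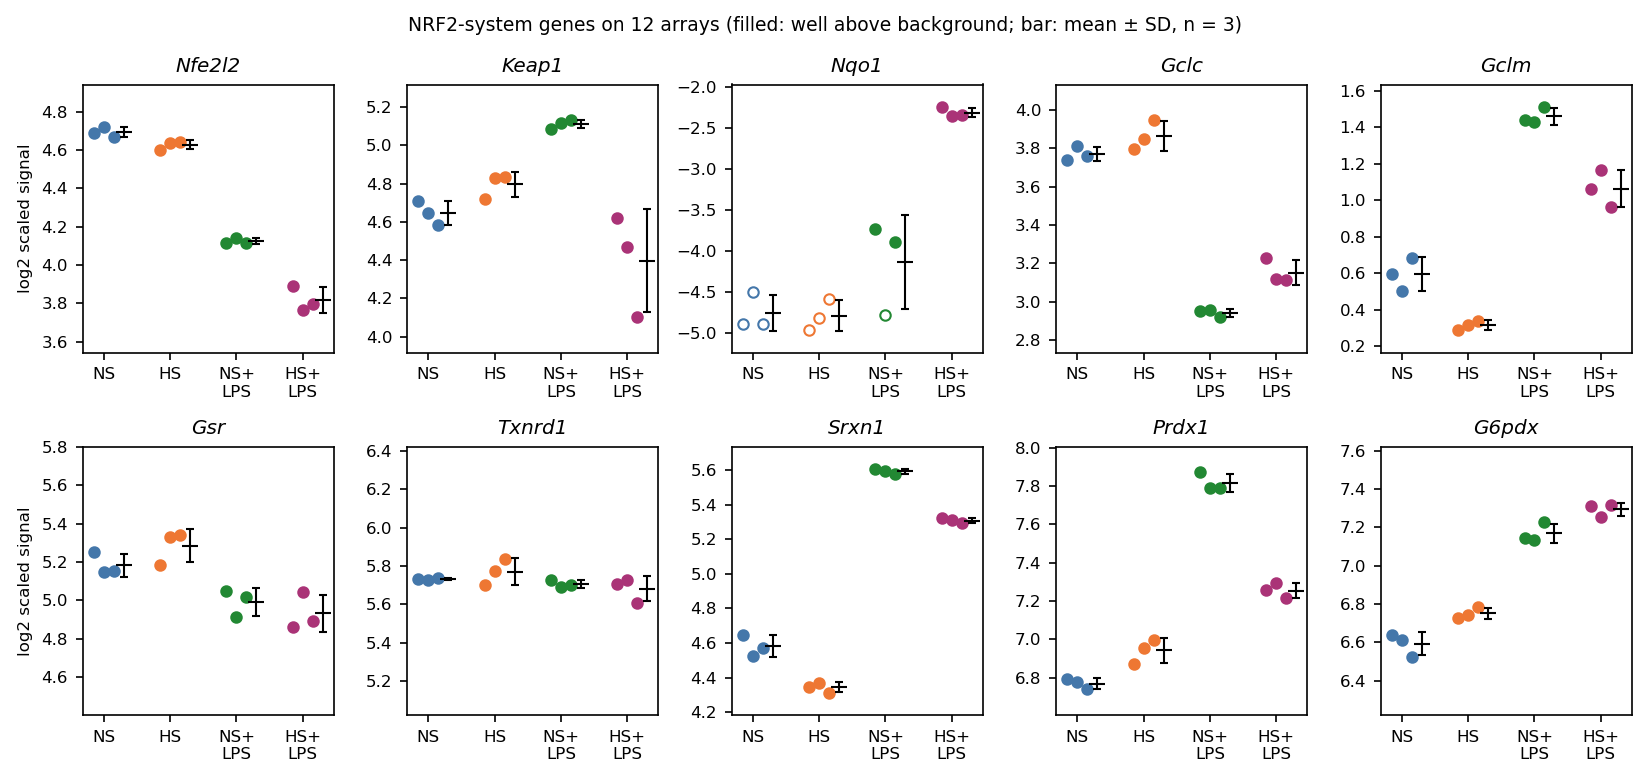
Log2 scaled signal of the 10 genes on each of the 12 arrays, by group, with the mean and SD of 3 arrays; filled points are well above background and open points are not. Srxn1, Prdx1, Gclm and G6pdx are higher in both LPS groups, Nfe2l2 and Gclc are lower in both, Nqo1 is above background on all 3 arrays only in HS + LPS, and each panel has its own vertical range.

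Nfe2l2 itself, the gene of the transcription factor, was lower after LPS in both media and lowest when NaCl was added as well. Its scaled signal (probe A_51_P411271, mm9 chr2:75513771-75513830, minus strand) was 25.8, 26.4 and 25.4 on the NS arrays and 24.2, 24.9 and 25.0 on the HS arrays. It was 17.3, 17.6 and 17.3 in NS + LPS and 14.8, 13.6 and 13.9 in HS + LPS. All 6 arrays with LPS lay below all 6 without it, and within the LPS arrays those with added NaCl were the lower 3. The log2 difference for LPS was -0.57 ± 0.04 (SE, here and below; adjusted p = 5.02e-07 from limma, here and below) without NaCl and -0.81 ± 0.04 (3.09e-08) with it. Added NaCl gave -0.31 ± 0.04 (adjusted p = 0.000119) in LPS-treated cells and -0.07 ± 0.04 (0.219; 95% interval -0.16 to 0.02) without LPS, where the groups did not overlap but the gene was not called. The NaCl effect was more negative with LPS than without it by 0.24 ± 0.06 (log2; adjusted p = 0.00861). That interaction was no longer called after quantile normalization (-0.15, adjusted p = 0.0756) or in the deposited value table (-0.16, 0.0567).

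Keap1, whose product marks NRF2 for degradation, moved in opposite directions with LPS in the 2 media. Its probe (A_51_P438666) maps to mm9 chr9:21035292-21035732 on the minus strand, a span of 441 bases for 60 bases of probe, so it crosses a splice junction. Scaled signals were 26.2, 25.0 and 24.0 in NS, and 26.4, 28.4 and 28.6 in HS. They were 34.0, 34.6 and 35.1 in NS + LPS, and 24.6, 22.1 and 17.2 in HS + LPS. NS + LPS stood above every other array, and HS + LPS was the most spread group, with replicate 3 the lowest of all 12. LPS raised Keap1 by 0.47 ± 0.11 (log2; adjusted p = 0.00311) without NaCl and lowered it by 0.40 ± 0.11 (0.00674) with NaCl. The latter became -0.25 without HS + LPS replicate 3 (adjusted p = 0.00525). Added NaCl lowered it 1.64-fold in LPS-treated cells (log2 difference -0.71 ± 0.11, adjusted p = 0.000311; -0.57 without HS + LPS replicate 3), while HS differed from NS by 0.15 ± 0.11 (0.303; 95% interval -0.09 to 0.39). The difference between these NaCl effects was -0.86 ± 0.15 (adjusted p = 0.00195). In the order of levels, HS + LPS and NS were not called different (gap 0.25, adjusted p = 0.0594), whereas HS lay below NS + LPS (gap 0.31, adjusted p = 0.0235). NS and HS were not called different either, although their arrays did not overlap. The SE in these tests is shared by all 4 groups, including the more spread HS + LPS. On the slide that holds NS and HS, their difference of 0.15 had an SE of 0.05 and an adjusted p of 0.0612 (limma).

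Nqo1, a quinone reductase and a widely used reporter of NRF2 activity, was measured near the limit of detection, and stood above it in HS + LPS. Its probe (A_51_P424338, mm9 chr8:109912440-109912499, minus strand) did not rise well above background in NS or in HS. Its scaled signal was 0.0338, 0.0443 and 0.0338 in NS and 0.0319, 0.0356 and 0.0415 in HS. In NS + LPS it was 0.0757, 0.0363 and 0.0674, the middle value again not above background. In HS + LPS it was 0.212, 0.197 and 0.198, all above background. Every HS + LPS array was thus higher than every array of the other groups, while NS + LPS overlapped the groups without LPS. Since Nqo1 entered the test only through HS + LPS, its tests against that group are conditioned on the high level there and are given as a description. The fitted log2 difference between HS + LPS and NS + LPS was 1.83 ± 0.24 (adjusted p = 0.000118, and also called with no filter on dim probes), with 2 of 3 NS + LPS arrays above background, and it was 0.92 with normexp background correction. On the scaled signal HS + LPS was at least 4.10-fold higher than HS, a bound for that scale because no HS array rose above background. The fitted log2 difference was 2.48 (adjusted p = 4.68e-06). With normexp it was 1.19, a smaller fold than that bound, so the bound does not hold across processing. No NS array and only 2 of 3 NS + LPS arrays were above background, so no lower bound is given for their fold. The fitted difference of NS + LPS from NS was 0.62 ± 0.24 (log2; adjusted p = 0.0403). This call was lost in 14 of 19 alternatives, among them the arrays of the shared slide alone (0.50, adjusted p = 0.185) and the fits without NS replicate 1 (0.56), NS replicate 3 (0.56), NS + LPS replicate 1 (0.42) or NS + LPS replicate 3 (0.50). Against a fitted difference of 0.62 with all arrays, it was 0.95 without NS + LPS replicate 2. The fitted interaction was 1.86 ± 0.34 (adjusted p = 0.00223; 0.85 with normexp), but no NS or HS array was above background, so its size is not a measured one. No fold is given for HS against NS, both below background.

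The enzymes of glutathione supply split. Gclc and Gclm encode the catalytic and the modifier subunit of glutamate-cysteine ligase, the first and rate-limiting enzyme of glutathione synthesis, and they moved in opposite directions in every comparison in which both were called. Gclc (A_51_P365019, mm9 chr9:77641296-77641355, plus strand) read 13.4, 14.1 and 13.5 in NS, 13.9, 14.4 and 15.4 in HS, 7.75, 7.76 and 7.56 in NS + LPS and 9.36, 8.67 and 8.65 in HS + LPS. All LPS arrays were below all arrays without LPS, and among the LPS arrays those with NaCl were higher. Gclm (A_51_P320089, mm9 chr3:121962174-121964809, plus strand, across a junction with a span of 2636 bases) read 1.51, 1.42 and 1.61 in NS, 1.22, 1.25 and 1.27 in HS, 2.71, 2.69 and 2.85 in NS + LPS and 2.09, 2.24 and 1.95 in HS + LPS. The 4 groups did not overlap, in the order HS, NS, HS + LPS and NS + LPS from low to high.

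LPS lowered Gclc by 0.83 ± 0.05 (log2; adjusted p = 1.34e-07) without NaCl, and the difference was -0.71 ± 0.05 (3.73e-07) with NaCl. It raised Gclm by 0.87 ± 0.06 (4.89e-07) and 0.75 ± 0.06 (1.25e-06) in the same media. Added NaCl lowered Gclm in both settings, by 0.28 ± 0.06 (adjusted p = 0.00475) without LPS and 0.40 ± 0.06 (0.000332) with LPS. The difference of these effects was -0.12 (adjusted p = 0.314; 95% interval -0.31 to 0.07). Added NaCl raised Gclc by 0.21 ± 0.05 (0.00464) in LPS-treated cells, a call lost with normexp (0.11, adjusted p = 0.0689). HS differed from NS by 0.09 ± 0.05 for Gclc (0.163; 95% interval -0.02 to 0.20).

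Gsr, glutathione reductase, which returns oxidised glutathione to its reduced form with NADPH, was lower in both LPS groups. Its brighter probe (A_55_P1966982, mm9 chr8:34808488-34808547, plus strand) read 38.1, 35.4 and 35.6 in NS, 36.4, 40.2 and 40.5 in HS, 33.1, 30.1 and 32.3 in NS + LPS and 29.1, 33.0 and 29.7 in HS + LPS. The LPS arrays lay below the others, and the NaCl groups overlapped their controls. LPS lowered it 1.14-fold without NaCl (-0.19 ± 0.06, adjusted p = 0.0252), a call lost without NS replicate 1 (-0.16, 0.0858), without NS + LPS replicate 2 (-0.15, 0.0959) and with no filter on dim probes (0.0508). With NaCl the LPS difference was -0.35 ± 0.06 (0.000625). NaCl was not called without LPS (0.10, adjusted p = 0.248; interval -0.04 to 0.25) or with it (-0.06, 0.454; -0.20 to 0.09), although the former passed with array weights (0.15, 0.0436). The other probe of Gsr (A_55_P2103055, chr8:34808413-34808472) gave -0.20 and -0.36 for LPS without and with NaCl, close to the values of the brighter probe.

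Of the thioredoxin and peroxiredoxin branch, Srxn1 and Prdx1 rose with LPS and Txnrd1 was not called. Txnrd1, the cytosolic thioredoxin reductase, was the only one of the 10 genes not called in any comparison of the groups. Its probe (A_51_P320614, mm9 chr10:82360230-82360289, plus strand) read 53.2, 52.9 and 53.4 in NS, 51.9, 54.8 and 57.2 in HS, 53.0, 51.7 and 51.9 in NS + LPS and 52.3, 53.0 and 48.8 in HS + LPS. The groups overlapped in every comparison and no neighbours in their order differed. Log2 differences were 0.04 for NaCl (95% interval -0.06 to 0.14), -0.02 for NaCl with LPS (-0.13 to 0.08), -0.03 for LPS (-0.13 to 0.08) and -0.09 for LPS with NaCl (-0.19 to 0.01), with adjusted p of 0.55, 0.659, 0.647 and 0.102. Other scalings did call it lower after LPS, quantile normalization in both media (-0.16, adjusted p = 0.0042, without NaCl and -0.11, 0.0288, with it), the deposited table without NaCl (-0.11, 0.0362) and normexp with NaCl (-0.14, 0.0168). Leaving out HS replicate 1 also called it with NaCl (-0.12, 0.0366).

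Srxn1 encodes sulfiredoxin, which reactivates peroxiredoxins that have been overoxidised. Its probe (A_55_P2033120, mm9 chr2:151937009-151937068, plus strand) read 25.1, 23.0 and 23.7 in NS, 20.4, 20.7 and 19.9 in HS, 48.7, 48.3 and 47.8 in NS + LPS and 40.0, 39.7 and 39.1 in HS + LPS. The 4 groups did not overlap, in the same order as for Gclm. LPS raised it, 2.02-fold without NaCl (1.01 ± 0.04, adjusted p = 4.59e-09) and 1.95-fold with it (0.96 ± 0.04, 6.85e-09). Added NaCl lowered it in both settings, by 0.24 ± 0.04 (0.000954) without LPS and 0.29 ± 0.04 (0.000155) with LPS. The difference of these effects was -0.05 (adjusted p = 0.52; 95% interval -0.17 to 0.07).

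Prdx1, an abundant peroxidase of the peroxiredoxin family, rose with LPS in both media, and NaCl reduced the level in LPS-treated cells. Its brighter probe (A_55_P2147427, mm9 chr4:116371818-116371877, plus strand) read 110.7, 109.6 and 106.8 in NS, 117.1, 124.1 and 127.9 in HS, 234.1, 221.0 and 221.3 in NS + LPS and 152.9, 156.9 and 148.4 in HS + LPS. None of the 4 groups overlapped, and HS + LPS lay between HS and NS + LPS. The other probe (A_66_P119421, chr4:116372422-116372481) read 4.53, 4.24 and 4.21 in NS, 4.18, 4.38 and 4.41 in HS, 7.76, 7.18 and 7.41 in NS + LPS and 5.60, 5.96 and 5.57 in HS + LPS. It shared the order of the LPS groups, and its NS and HS arrays overlapped. LPS raised the brighter probe 2.07-fold without NaCl (1.05 ± 0.04, adjusted p = 1.02e-08) and 1.24-fold with it (0.31 ± 0.04, 9.85e-05; 0.20 with normexp and 0.19 with quantile normalization), and the other probe by 0.78 and 0.40 on the log2 scale.

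With LPS, NaCl lowered Prdx1 1.48-fold (-0.56 ± 0.04, adjusted p = 4.30e-06; -0.38 for the other probe). The difference between the NaCl effects was -0.73 ± 0.06 (3.41e-05), and -0.38 for the other probe (adjusted p = 0.00253 over all probes). Without LPS the brighter probe was 0.17 ± 0.04 higher in HS (0.0119), whereas the other probe was not called (adjusted p = 0.982). The call was lost with the mean of both probes (0.09, 0.169) and without HS replicate 3 (0.14, 0.0521). The array annotation also assigns the brighter probe to predicted transcripts, so its signal may include near-identical copies and its difference from the other probe is uncertain.

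**Figure D2:**
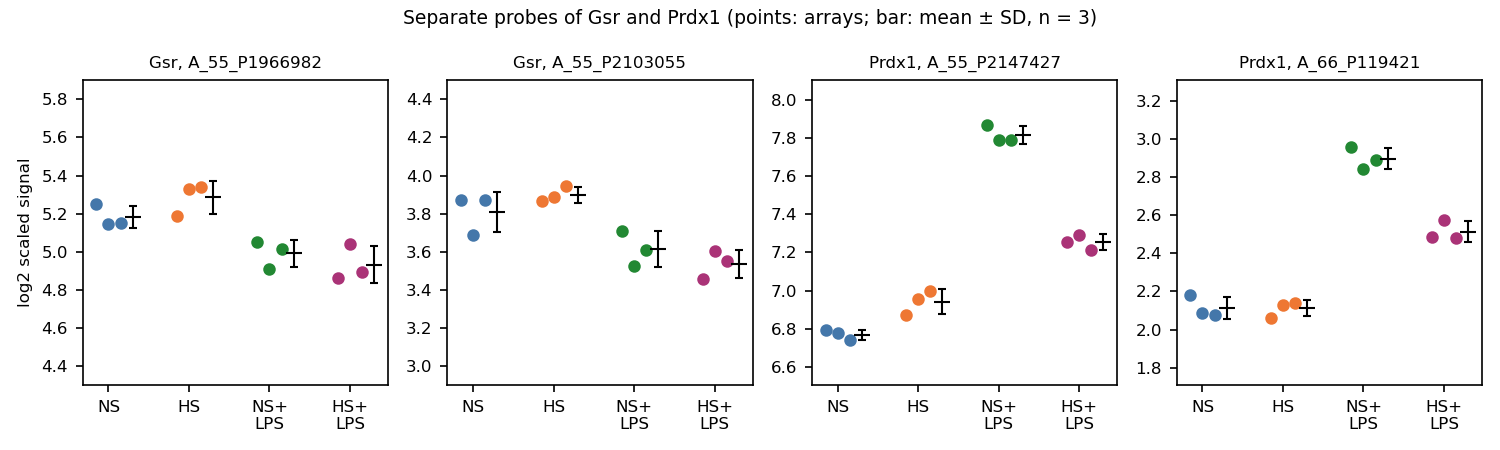
Log2 scaled signal of the separate probes of Gsr (left pair) and Prdx1 (right pair) on the 12 arrays, with the mean and SD of 3 arrays per group. The Gsr probes show the same order of groups, and for Prdx1 the brighter probe separates HS (117.1 to 127.9 scaled signal) from NS (106.8 to 110.7) where the other probe does not (4.18 to 4.41 against 4.21 to 4.53).

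G6pdx encodes glucose-6-phosphate dehydrogenase, the entry enzyme of the oxidative pentose phosphate pathway and a source of the NADPH that Gsr, Txnrd1 and Nqo1 use. Its probe (A_51_P187082, mm9 chrX:71654949-71655008, minus strand) read 99.8, 97.9 and 92.0 in NS, 106.1, 107.3 and 110.2 in HS, 141.5, 140.6 and 149.8 in NS + LPS and 159.0, 152.9 and 159.5 in HS + LPS. The 4 groups did not overlap, and each treatment went with a higher level. LPS raised it by 0.58 ± 0.04 (log2; adjusted p = 9.07e-07) without NaCl and 0.54 ± 0.04 (1.23e-06) with it. NaCl gave the smallest called rises of the 10 genes, 0.16 ± 0.04 (0.0158) without LPS and 0.13 ± 0.04 (0.0299) with LPS, and both calls depended on the setting. The first was lost in 6 of 20 alternatives, with quantile (0.11, adjusted p = 0.0525) or cyclic loess normalization (0.11, 0.0625), in the deposited table (0.11, 0.0515), with no filter (0.0514), without NS replicate 3 (0.13, 0.0579) and without HS replicate 3 (0.14, 0.0611). The second was lost in 9 of 18, among them normexp (0.09, 0.128) and a block for replicate number (0.0544). It was also lost when NS + LPS replicate 1 (0.11, 0.0854), NS + LPS replicate 2 (0.11, 0.0963), HS + LPS replicate 1 (0.12, 0.0821) and HS + LPS replicate 3 (0.12, 0.0831) were left out in turn. A near-identical autosomal copy, G6pd2, exists in the mouse, and its share of the signal was not tested. Without HS replicate 3, only 2 of the 10 genes, Gclm and Srxn1, were called for NaCl without LPS.

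**Figure D3:**
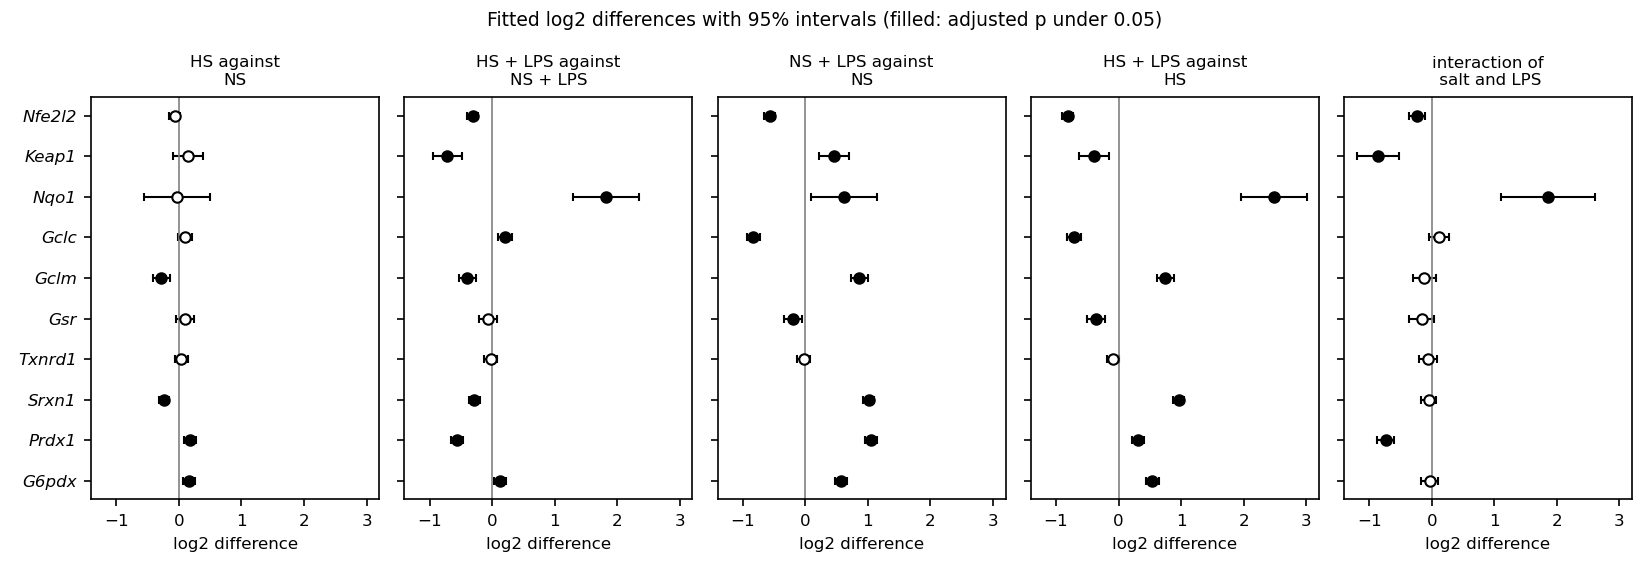
Fitted log2 differences of the 10 genes in the 4 comparisons and the interaction, with 95% intervals; filled points have an adjusted p under 0.05. Srxn1 (1.01 and 0.96) and Gclm (0.87 and 0.75) rise with LPS in both media, whereas Keap1 changes sign (0.47 and -0.40) and Prdx1 rises by 1.05 and 0.31.

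Relative to the median of all genes in HS + LPS against HS, the LPS differences with NaCl were 2.59 for Nqo1, 1.07 for Srxn1, 0.86 for Gclm, 0.65 for G6pdx and 0.42 for Prdx1. On the same scale they were 0.02 for Txnrd1, -0.25 for Gsr, -0.29 for Keap1, -0.61 for Gclc and -0.70 for Nfe2l2. The signs of the called members were the same on both scales.

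The genes that work on NRF2 went both ways. Of 14 listed regulators, all tested, limma called 0 higher and 4 lower with NaCl without LPS (1 and 6 at an unadjusted p under 0.05; all genes, 18.2% higher and 18.8% lower), with a median log2 difference of -0.08 (0.02 over all genes). Maff, a small MAF partner of NRF2, fell by 0.59 (adjusted p = 0.000859), and Trim16, a ubiquitin ligase described as stabilising NRF2, fell by 0.54 (0.000209), with -0.31 for its other probe (0.0207 over all probes). Sqstm1, the p62 protein that sequesters KEAP1, read -0.37 (0.00487), but its other probe gave 0.16 and the call was lost with the mean of both (-0.11). With LPS, NaCl raised 2 and lowered 6 of the 14 (median -0.06, and -0.04 over all genes; all genes, 26.2% higher and 31.4% lower). Maff was then higher by 0.40 (0.00501), and Bach1, a repressor at antioxidant response elements, fell by 0.33 (0.000452). The acetyltransferase Ep300 fell by 0.53 (0.02), which was not called without NS + LPS replicate 3 (-0.47, 0.0644) or in a fit of only the 2 groups (0.0791).

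LPS raised 9 and lowered 3 of the regulators without NaCl (median 0.17; all genes, 28.6% higher and 35.1% lower), and raised 7 and lowered 5 with it (median 0.17; all genes, 30.5% and 41.8%). Sqstm1 read 18.6, 18.8 and 20.2 in NS and 63.1, 63.6 and 57.2 in NS + LPS, a rise of 1.67 (log2; 2.52e-08), and its log2 difference with NaCl was 2.13 (4.28e-09). Its other probe gave 1.43 and 1.34. Maff read 0.453, 0.528 and 0.479 in NS, 0.302, 0.348 and 0.319 in HS, 1.16, 1.26 and 1.31 in NS + LPS and 1.76, 1.42 and 1.74 in HS + LPS. It was thus low in HS and high in HS + LPS, with LPS differences of 1.36 (4.83e-07) and 2.34 (7.17e-09). Btrc, a subunit of a ubiquitin ligase that degrades NRF2 independently of KEAP1, fell by 1.73 (5.09e-05) and 1.48 (0.000142). Its tested probe was near background with LPS, at 0.0847, 0.0541 and 0.0578 in NS + LPS and 0.0615, 0.0953 and 0.0818 in HS + LPS. Only 2 of 3 arrays were above background in each of these groups. It was kept for testing through the groups without LPS, where it is high, so the falls are given as a description. The other Btrc probe gave -0.47 and -0.27, and the latter was not called.

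A wider set of 24 genes known as NRF2 targets, of which 21 were tested (Gsta4, Mgst1 and Aox1 were not), was mostly higher with NaCl in LPS-treated cells. There 13 rose and 2 fell (median 0.21; all genes, 26.2% higher and 31.4% lower), where 7 rose and 6 fell with NaCl without LPS (median 0.04; all genes, 18.2% and 18.8%). Hmox1, heme oxygenase, read 25.9, 24.6 and 24.0 in NS, 18.5, 19.9 and 20.4 in HS, 96.6, 93.3 and 94.1 in NS + LPS and 182, 184 and 190 in HS + LPS. NaCl lowered Hmox1 in resting cells (-0.34, adjusted p = 0.000305; -0.30 and 0.0637 for its other probe) and raised it 1.96-fold in LPS-treated cells (0.97, 2.17e-07). Akr1b8, an aldo-keto reductase, read 37.3, 34.7 and 34.5 in NS, 43.5, 41.1 and 54.1 in HS, 122, 119 and 119 in NS + LPS and 282, 275 and 311 in HS + LPS. NaCl raised Akr1b8 in both settings, by 0.37 (0.00992) and 1.27 (2.51e-06), and the groups did not overlap, in the order NS, HS, NS + LPS and HS + LPS. Ephx1, microsomal epoxide hydrolase, was 1.08 higher with NaCl in LPS-treated cells (8.75e-08), but its other probe gave 0.14 and was not called. Blvrb, biliverdin reductase B, fell by 0.57 (0.000115) with NaCl without LPS.

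LPS raised 12 and lowered 6 of the 21 targets without NaCl (median 0.21; all genes, 28.6% higher and 35.1% lower), and 13 and 5 with it (median 0.39; all genes, 30.5% and 41.8%). Without NaCl the largest was Glrx, glutaredoxin, 8.34-fold (3.06, 1.17e-10), followed by the cystine transporter Slc7a11 (2.08, 7.76e-08) and Hmox1 (1.93, 1.52e-10). With NaCl they were Hmox1, 9.45-fold (3.24, 3.89e-12), Glrx (2.84, 2.03e-10) and Akr1b8 (2.65, 2.33e-09).

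Other genes of peroxide, superoxide and thiol defence (22, of which 18 were tested and Sod3, Gpx3, Gpx7 and Gpx8 were not) went both ways. With NaCl 4 rose and 5 fell without LPS (median 0.02; all genes, 18.2% higher and 18.8% lower), and 7 rose and 6 fell with LPS (median 0.08; all genes, 26.2% and 31.4%). The methionine sulfoxide reductases Msrb1 and Msra fell by 0.37 (0.000547) and 0.29 (0.000857) and Txnrd3 by 0.28 (0.00922) without LPS, with -0.19 for the other probe of Msrb1. With LPS, Txnip, an inhibitor of thioredoxin, fell by 0.63 (4.81e-06; -0.38 for its other probe), Msra by 0.61 (3.48e-06) and Txnrd3 by 0.40 (0.000814). LPS raised 6 and lowered 8 without NaCl (median -0.01; all genes, 28.6% higher and 35.1% lower) and raised 6 and lowered 7 with it (median -0.05; all genes, 30.5% and 41.8%). Prdx5, a mitochondrial and peroxisomal peroxiredoxin, rose by 1.37 (8.55e-10) and 1.55 (3.38e-10), Msra fell by 1.04 (1.54e-08) and 1.36 (2.17e-09), Msrb1 fell by 0.72 (1.09e-06; -1.18 for its other probe) without NaCl, and Cat, catalase, rose by 0.64 (2.35e-06) with NaCl.

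Of 13 other genes listed for NADPH supply, all tested, most fell with LPS, whereas G6pdx rose. LPS raised 3 and lowered 9 without NaCl (median -0.35, and -0.03 over all genes; all genes, 28.6% higher and 35.1% lower) and raised 2 and lowered 8 with it (median -0.18, and -0.11 over all genes; all genes, 30.5% and 41.8%). Not all of the 13 form NADPH themselves, so these counts do not measure NADPH supply. Pgd was not called for LPS in either medium (0.07 and -0.01), and Idh1 fell by 0.32 without NaCl and rose by 0.44 with it. Nnt, the mitochondrial transhydrogenase, fell by 0.85 (1.77e-08) and Idh2 by 0.76 (2.59e-07) without NaCl, and Me2, Rpia and Idh2 fell by 0.80 (9e-08), 0.73 (1.97e-06) and 0.73 (2.99e-07) with it. Nadk, NAD kinase, read 0.93 higher (3.26e-08) without NaCl, but its probes disagreed (-0.21 for the other). With NaCl 3 rose and 1 fell without LPS (median 0.04; all genes, 18.2% and 18.8%), and 3 rose and 5 fell with LPS (median -0.07; all genes, 26.2% and 31.4%). Idh1, the cytosolic isocitrate dehydrogenase, rose by 0.27 (0.0126; not called without NS replicate 2, 0.22 and 0.053) and 1.02 (1.59e-06) in these settings. Mthfd2, a mitochondrial folate enzyme, fell by 0.42 (0.00355) and 0.90 (1.48e-05). Mthfd1 rose by 0.25 (0.000528) without LPS, and Nnt rose by 0.61 (1.16e-06; 1.11 for its other probe) with LPS.

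**Figure D4:**
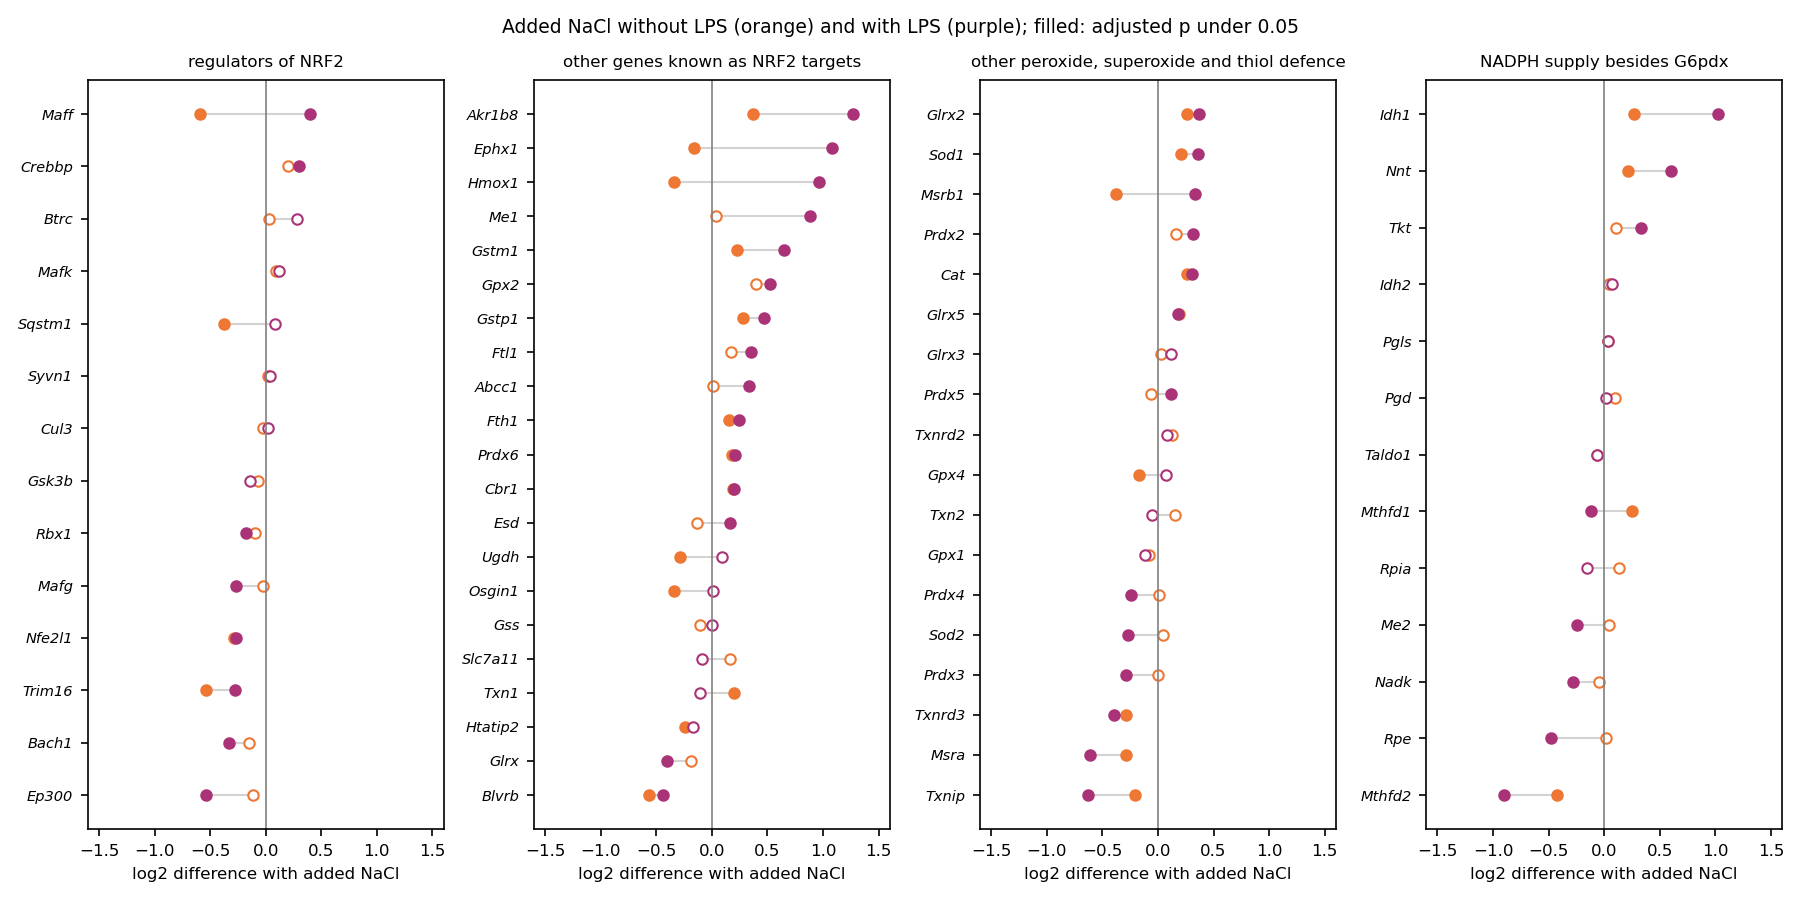
Log2 differences with added NaCl for each tested gene of the 4 lists, without LPS (orange) and with LPS (purple); filled points have an adjusted p under 0.05. Maff, Ephx1, Hmox1 and Msrb1 lie below 0 without LPS and above 0 with it and are called in both settings. Other genes that cross 0 in this way are not called in both. The other probe of Ephx1, not plotted, gave 0.01 and 0.14 and was not called. Akr1b8 and Idh1 have the largest rises with LPS in their lists (1.27 and 1.02).

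Across the 12 arrays the tested genes whose log2 levels were most like those of Nqo1 were Tnfrsf12a (Pearson r 0.986), Ypel3 (0.977) and Cnnm2 (0.972), all chosen by the highest r. Nqo1 was above background on only 5 of the 12 arrays, so its values on the other arrays carry little order. For Srxn1 they were Oas1f (0.999), Tor3a (0.999) and Pla1a (0.999), and for Gclm Slc25a43 (0.995), Tor1aip1 (0.992) and A530064D06Rik (0.991). The 12 points share 4 groups, so such r values follow the order of the group means and are a description only.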

How the data were processed

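The deposited scanner values of the 12 Agilent arrays of 1 colour are linear intensity, background subtracted by Feature Extraction 10.7.3.1 per the file headers. Per the file headers the other columns used are flags, 0 or 1 for each spot. The authors' deposited value table, also intensity, had the same median on each array (28.8), and its normalization is not given in the sources used here. Sample titles gave the groups, and the scanner files the slides and scan days. Probe coordinates are on mm9, and the exon or UTR of each probe was not analysed here.

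Each processed signal was divided by its array's 75th percentile over 59305 non-control spots and log2 transformed. Probes well above background throughout at least 1 group of 3 arrays were kept, which left 13856 genes. For the 3984 genes with several probes the brightest on average was used. limma 3.58.1 was fitted to all 12 arrays (R 4.3.3), 2-sided, with Benjamini-Hochberg adjustment over all genes and calls at an adjusted p under 0.05. Folds against a group with no array above background are lower bounds on the scaled signal only. They set the dim group at the lowest signal well above background on each array, or at the probe's own signal where higher. On simulated data with 200 of the 13856 genes changed, the fit recovered 68 to 75.5% of log2 changes of 0.5 between groups and 55% for the interaction. Far more genes were called in the real comparisons (36.2 to 72.3%), and the simulated noise was independent and normal. The recovered shares therefore do not carry over to the tests above.

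The members, the 4 lists and the tests were chosen with earlier results of these data known, so no list's direction is independent evidence. Named are all members, up to 3 called genes of each list with the largest differences in a comparison (the interaction's in the closing section), the 3 genes most like each of Nqo1, Srxn1 and Gclm, and 4 treatment checks. Alternatives were normexp (offset 50), quantile and cyclic loess normalization, the deposited table, no filter or a filter over all 12 arrays, averaging a gene's probes, a variance trend, fitting only the compared groups, array weights, replicate number as a block, slide as a fixed or random block, only the shared slide, and leaving out each array. The fixed slide block and the shared slide alone gave the same values, because NS + LPS array 3 was alone on its slide. Both are counted among the alternatives, so they are not separate checks.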

Additional observations from a re-analysis of the deposited data

Results flagged for a closer look

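The effect of added NaCl differed between cells with and without LPS, by limma's interaction test, for the following genes. All values are the NaCl effect with LPS minus that without it, on the log2 scale, with adjusted p-values over all genes. Since all HS + LPS arrays lay on a slide of their own, treatment and slide cannot be told apart in them.

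Among the 10 genes these were Keap1 (-0.86, 0.00195), Prdx1 (-0.73, 3.41e-05), Nfe2l2 (-0.24, 0.00861) and Nqo1 (1.86, adjusted p = 0.00223; 0.85 with normexp). Nqo1 was tested only because it was above background in HS + LPS, and no NS or HS array was above background, so its value is a description. Among regulators of NRF2, Maff gave 0.99 (0.000456), going from lower with NaCl in resting cells to higher in LPS-treated ones. Sqstm1 gave 0.45 (0.0114), -0.09 without a call for its other probe, and 0.18 and no call with the mean of its probes. Mafg gave -0.24 (0.018), and the call was lost with quantile normalization (-0.15), in the deposited table (-0.15), with no filter and with the mean of its probes (-0.07). Its other probes gave 0.01, -0.07 and 0.03, none of them called.

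Of other NRF2 targets, Hmox1 gave 1.31 (2.23e-06) and 1.30 for its other probe. Ephx1 gave 1.24 (2.23e-06), and 0.13 without a call for its other probe. Akr1b8 gave 0.90 (0.000699).

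Of the defence genes, Msrb1 gave 0.71 (0.000144), and 0.69 for its other probe. Txnip gave -0.42 (0.00161), and -0.15 without a call for its other probe. Msra gave -0.32 (0.00466). Of the genes listed for NADPH supply, Idh1 gave 0.76 (0.000341) and Mthfd2 -0.48 (0.0122). Rpe gave -0.49 (0.0255), which was not called with normexp (-0.22), quantile (-0.35) or cyclic loess normalization (-0.32), in the deposited table (-0.35), with no filter, or without NS replicate 1 (-0.48), NS replicate 2 (-0.49), HS replicate 2 (-0.48) or NS + LPS replicate 2 (-0.46).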

How the results depend on the processing

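No called result for a named gene changed sign under any alternative run. Over the 10 genes, 942 of the 985 values under alternatives kept their side of the threshold, 17 of them with a change of sign among differences not called (7 results of Nqo1, Txnrd1, Gsr, Srxn1 and G6pdx, such as Nqo1 in HS against NS, -0.03 and 0.07 with normexp, and Txnrd1, 0.04 and -0.01 with quantile normalization). Of the others, 37 (7 results) were no longer called and 6 (3 results) became called. The results concerned are those given with their values above. The number of members called ranged, over the arrays left out in turn, from 2 to 4 for NaCl without LPS (2 without HS replicate 3), 7 to 8 for NaCl with LPS, 7 to 9 and 9 to 10 for LPS without and with NaCl, and stayed at 4 for the interaction. Replicate number as a block gave 4, 7, 8, 9 and 4 members called in the same order, against 4, 8, 9, 9 and 4 without it, and same-numbered arrays did not deviate together (2 of 18 pairs correlated above 0.1; 5 of 12 arrays correlated best with their own number). The block ended the calls of G6pdx for NaCl with LPS and of Nqo1 for LPS without NaCl, and no other call of a named gene. Among all called genes, the share that was higher moved from 42.2% to 54.4% with cyclic loess for LPS with NaCl. It moved from 44.9% to 56.5% with no filter for LPS without NaCl. For the interaction it moved from 48% to 58.7% with quantile normalization, 61.6% with cyclic loess and 58.2% in the deposited table. A fixed slide block or the shared slide alone gives no value for comparisons with HS + LPS. The random slide block does give values there, but it cannot separate the treatment from the slide. Nqo1 has no value where genes must be above background on all 12 arrays. Fitting only the groups compared was not run for the interaction, since it is the same fit. Signal over background limits Nqo1, and 3 arrays a group limit the precision of every value.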
